A study of Solanum lycopersicum with 32 samples.

Results

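The genes described here are 10 tomato genes whose proteins work with florigen: the bZIP transcription factor gene SSP (SUPPRESSOR OF SP) and 9 TFT genes, which encode 14-3-3 proteins. They were chosen by identifier, not by their measured values, and are 10 of the 34728 gene rows that both deposited count tables hold. Florigen is a small mobile protein made in leaves, encoded in tomato by the FT relative SINGLE FLOWER TRUSS (SFT), and opposed by SELF PRUNING (SP). In rice, 14-3-3 proteins receive the FT protein in the cell and join it to the bZIP factor FD, and the assembled complex activates MADS-box genes of the FRUITFULL and APETALA1 group. SSP is a tomato relative of FD, and SSP2 is its closest relative in tomato. The 14-3-3 proteins bind many other phosphorylated proteins as well, and their transcripts are found in most tissues.

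Stem RNA was read in 32 libraries, 2 for each of 16 groups, in 5 experiments. Per the labels' protocols, a sample held 5 mid-segments of internodes taken 2 h after dawn from greenhouse plants chosen for uniformity. The sources used here do not say whether the 2 libraries of a group come from separate plants, so p-values measure only the spread between libraries, which may be technical. By column name, the 2 libraries of a heat-shock, Ginkgo or FUL group share a number, with a B added to that of replicate 2. Each graft or overexpression library has a number of its own. Whether a shared number means a shared sample is not stated. The overexpression experiment holds wild type (WT), sft mutant stems and stems labelled pSFT-SFT. The graft experiment holds WT//WT, sft//sft, 35S:SFT//WT, 35S:SFT//sft and 35S:SFT//sp. The donor comes first, as it does in the genotype labels, and the labels do not state from which partner the stem was taken. The FUL experiment holds WT, 35S:SFT and 35S:TFUL2 stems. The 35S promoter, of viral origin and active in most cells, drives SFT or the FRUITFULL gene FUL2 there, so expression is not limited to the cells that normally use these genes. The Ginkgo experiment holds 35S:GinFT stems only, with no WT of its own. In the heat-shock experiment every plant carries the sft mutation. It compares plants that also carry FT under a heat-inducible promoter (pHS:FT) with plants that do not, heated or left unheated. The duration and temperature of the heat are not given in the labels.

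Labels and reads disagree in places. The libraries labelled pSFT-SFT carry pTFT in their titles and held less SFT transcript than WT (log2 fold change -1.14, SE 0.24, adjusted p = 0.023 by edgeR). Without 1 or another of the 4 libraries compared, SFT was no longer called in any of the 4 fits, with adjusted p-values of 0.054 to 0.11 by edgeR. Directions given for this group are those of libraries so labelled. The sft stems of the overexpression experiment carry SFT as their genotype label and sft in their titles, and the sft//sft grafts are titled with a wt partner. Unheated sft replicate 1, labelled as lacking the transgene, held 12 reads of Arabidopsis FT, against 0 in replicate 2 and 57 and 70 in the heated pHS:FT libraries. Total counts per library ranged from 16583755 to 45790153. The summed level of 3 secondary-wall cellulose synthase genes, markers of xylem and fibres, was 1650 to 3350 CPM over all libraries. The floral genes TAG1 and TM5 had group means of at most 0.429 and 0.438 CPM, while the floral marker TM6 stood at 10.9 to 21.8 CPM in every group.

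Levels below are CPM (read counts scaled to a common library total after TMM normalization over all 32 libraries), given as mean ± SD with n = 2, and describe each gene against itself only. Gene lengths were not used, so the levels of different genes are not compared. Fold changes are on the log2 scale, come from the quasi-likelihood test of edgeR within 1 experiment, and carry their standard error (SE). A gene is called changed when its Benjamini-Hochberg adjusted p over all genes tested is under 0.05. In whole-stem RNA, fewer cells of a type and less RNA per cell cannot be told apart. The deposited tables do not pair identifiers with names. Of the TFT symbols listed for these genes, 7 are in the reference gene table, and 7 of 7 lie on the chromosome given in the identifier. TFT2 and TFT5 are not among its symbols, so the name TFT2 was not checked. The table holds none of the identifiers, so the chromosome and the order along it were the only checks. For Solyc04g074230 and Solyc04g076060, listed as TFT5 and TFT7, the order along chromosome 4 leaves the name unclear, and both are called by their identifiers. Reads of 50 bp that match several TFT genes may have been split or dropped when the authors counted them.

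SSP (Solyc02g083520) was detected in all 32 libraries, with 38 to 223 reads in each and levels from 1.59 to 7.18 CPM. In the FUL experiment, SSP stood at 7.18 and 5.94 CPM in the 2 35S:TFUL2 libraries, at 1.83 and 3.74 CPM in WT and at 2.94 and 2.97 CPM in 35S:SFT. Both 35S:TFUL2 libraries lay above every other library of that experiment. The difference between 35S:TFUL2 and WT (log2 1.23, SE 0.34) did not pass the test (adjusted p = 0.068 by edgeR's quasi-likelihood test), nor did that between 35S:SFT and 35S:TFUL2 (log2 -1.19, SE 0.34, adjusted p = 0.081). DESeq2 called both (adjusted p = 0.021 and 0.03). Over the 4 fits that left out 1 of the libraries compared, edgeR called the first in 1, without WT replicate 2, and the adjusted p ranged from 0.016 to 0.23. SSP2 in the same stems was 3.71 ± 0.494 CPM in 35S:TFUL2 and 2.36 ± 0.628 CPM in WT, a difference that did not pass either (log2 0.66, SE 0.40, adjusted p = 0.32).

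In the other experiments no comparison of SSP passed the test. The overexpression experiment gave 2.96 ± 0.467 CPM in WT, 2.67 ± 0.296 in sft and 3.47 ± 0.818 in stems labelled pSFT-SFT. The grafts gave 4.89 ± 1.82 CPM in WT//WT, 4.30 ± 1.58 in sft//sft, 4.24 ± 0.579 in 35S:SFT//WT, 4.46 ± 1.53 in 35S:SFT//sft and 3.83 ± 0.923 in 35S:SFT//sp. The 5 graft groups overlapped each other. In the heat-shock experiment SSP stood at 2.80 ± 0.0644 CPM in unheated sft, 3.52 ± 0.557 in heated sft, 3.67 ± 0.146 in unheated pHS:FT and 2.43 ± 0.874 in heated pHS:FT plants. The heat response of SSP was positive in sft (log2 0.33, SE 0.27) and negative in pHS:FT plants (log2 -0.60, SE 0.28). The difference between these responses did not pass the test (log2 -0.93, SE 0.39, adjusted p = 0.51). The lowest group was 35S:GinFT, at 2.39 ± 1.14 CPM. In the order of the 16 group means, 14 of 15 neighbouring pairs overlapped, and the exception was 35S:SFT next to unheated sft plants.

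**Figure D1:**
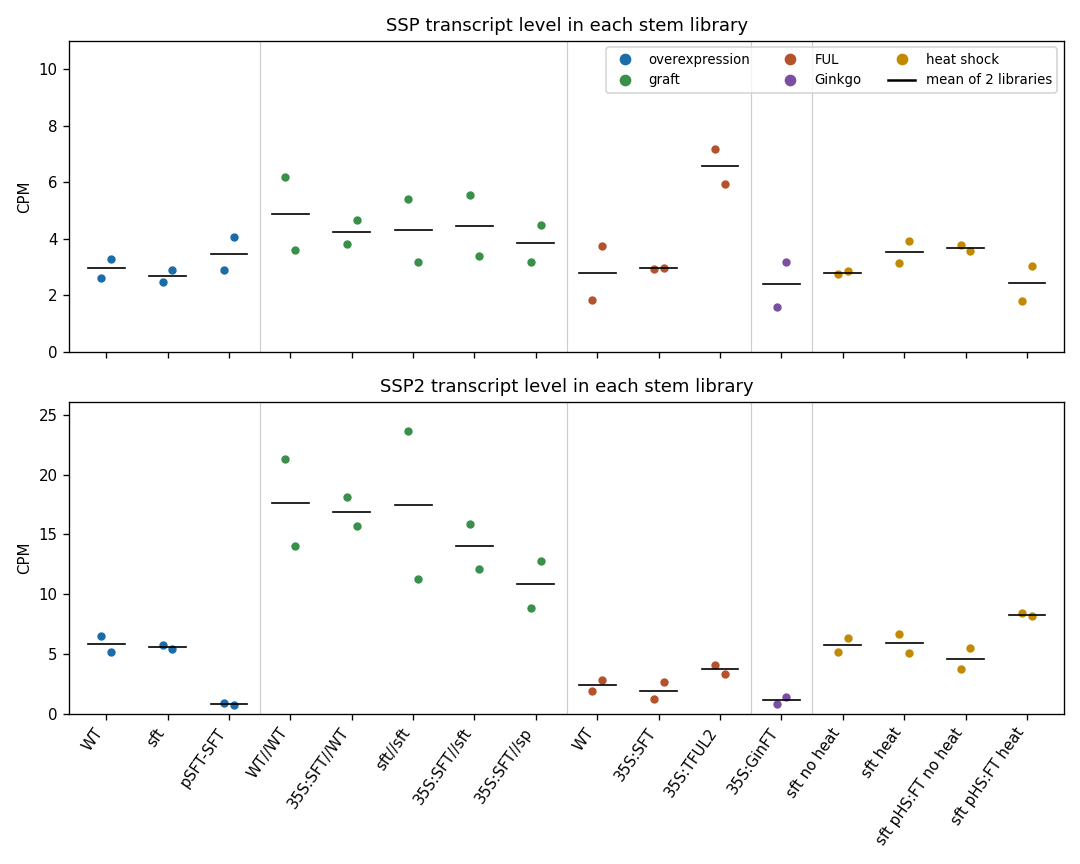
Level of SSP (upper panel) and SSP2 (lower panel) in CPM in each of 32 stem libraries, by group. Points are libraries, horizontal lines are means of 2, colours mark the experiment. The group mean of SSP is highest in 35S:TFUL2, with libraries at 5.94 and 7.18 CPM, and that of SSP2 is lowest in the libraries labelled pSFT-SFT, with a mean of 0.789 CPM.

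The other genes of the florigen pathway were read from a list of 8: SFT, SP, SP5G (a repressor of flowering from the same family), SSP2, FUL1, FUL2, MBP10 and MBP20. SSP2 (Solyc02g061990), the relative of SSP, stood at 0.878 and 0.700 CPM in the libraries labelled pSFT-SFT, at 6.47 and 5.17 CPM in WT and at 5.71 and 5.38 CPM in sft. It fell by 2.87 on the log2 scale against WT (SE 0.22, adjusted p = 0.00098 by edgeR) and by 2.80 against sft (SE 0.22, adjusted p = 0.00098). Both falls were called under 9 of 9 alternatives. SSP itself gave a log2 fold change of 0.23 against WT (SE 0.24, adjusted p = 0.55). In that comparison with WT, 4 of the 6 pathway genes tested rose, FUL1, FUL2, MBP10 and MBP20, and 2 fell, SSP2 and SFT. FUL1 stood at 53.27 ± 10.01 against 3.79 ± 0.176 CPM there. SSP2 was highest in the grafts, at 10.8 to 17.7 CPM in the group means, and was not called in any comparison outside the overexpression experiment. In the other experiments, the counts of pathway genes called were 3 higher for 35S:SFT against WT, 2 higher for 35S:TFUL2 against WT, 2 higher and 1 lower for 35S:SFT against 35S:TFUL2, 1 lower for 35S:GinFT against WT and 4 lower for 35S:GinFT against 35S:SFT, out of 6 tested in each. The list holds SFT and FUL2, which the 35S constructs drive, so part of these counts was set by the constructs. SFT stood at 58.7 CPM in 35S:SFT and at 0 in WT of the FUL experiment. FUL2 stood at 1210 CPM in 35S:TFUL2 and at 3.21 CPM in that WT. With heat in pHS:FT plants, and for heated pHS:FT against heated sft, 1 of the 4 tested, FUL2, was called higher. FUL1 was not called there, though its level was higher too. It stood at 8.64 ± 0.154 CPM in heated pHS:FT, 1.1 ± 0.69 in unheated pHS:FT and 0.849 ± 0.00551 in heated sft. The 2 unheated sft libraries of that experiment held 4.38 and 0.271 CPM of FUL1. In all, edgeR called a gene of this list in 9 of the 18 comparisons. SP5G was at or near 0 in every group, and SP had a highest group mean of 0.562 CPM.

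The 9 TFT genes were all expressed in all 32 libraries. Their summed level ran from 1890 ± 1.61 CPM in 35S:SFT to 2860 ± 21.1 CPM in unheated pHS:FT stems. Over the 16 groups, the fold between the highest and lowest group mean was 1.33 for TFT4, 1.40 for TFT9, 1.77 for TFT6, 1.84 for TFT1, 1.96 for TFT8, 2.21 for Solyc04g076060, 2.32 for Solyc04g074230, 2.36 for TFT3 and 3.25 for TFT2. For SSP it was 2.75. The median of the 10 genes was 2.09, and that of all 22480 genes that passed the filter on low counts was 2.39.

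For several TFT genes much of this variation lay between experiments, whose plants and handling cannot be told apart. Experiment accounted for 86.3% of the variance of log2 CPM for TFT2, 85.3% for TFT9 and 72.5% for TFT1, with a median of 52.4% over all genes. TFT2, for instance, stood at 154 ± 4.56 CPM in WT of the overexpression experiment, at 111 ± 12.3 CPM in WT//WT grafts and at 67.8 ± 0.453 CPM in WT of the FUL experiment. TFT9 lay between 328.8 and 355.3 CPM in the FUL and Ginkgo groups and between 379 and 461 CPM in the rest. TFT4, a 14-3-3 protein known in tomato as a target of the bacterial effector XopQ, had 13.2% of its variance between experiments and 81.3% between groups of one experiment. SSP (18.9% between experiments) and TFT6 (27.2%) also lay below the median of all genes. In SSP, 33.5% of the variance lay between the 2 libraries of a group, against a median of 14.3% over all genes.

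**Figure D2:**
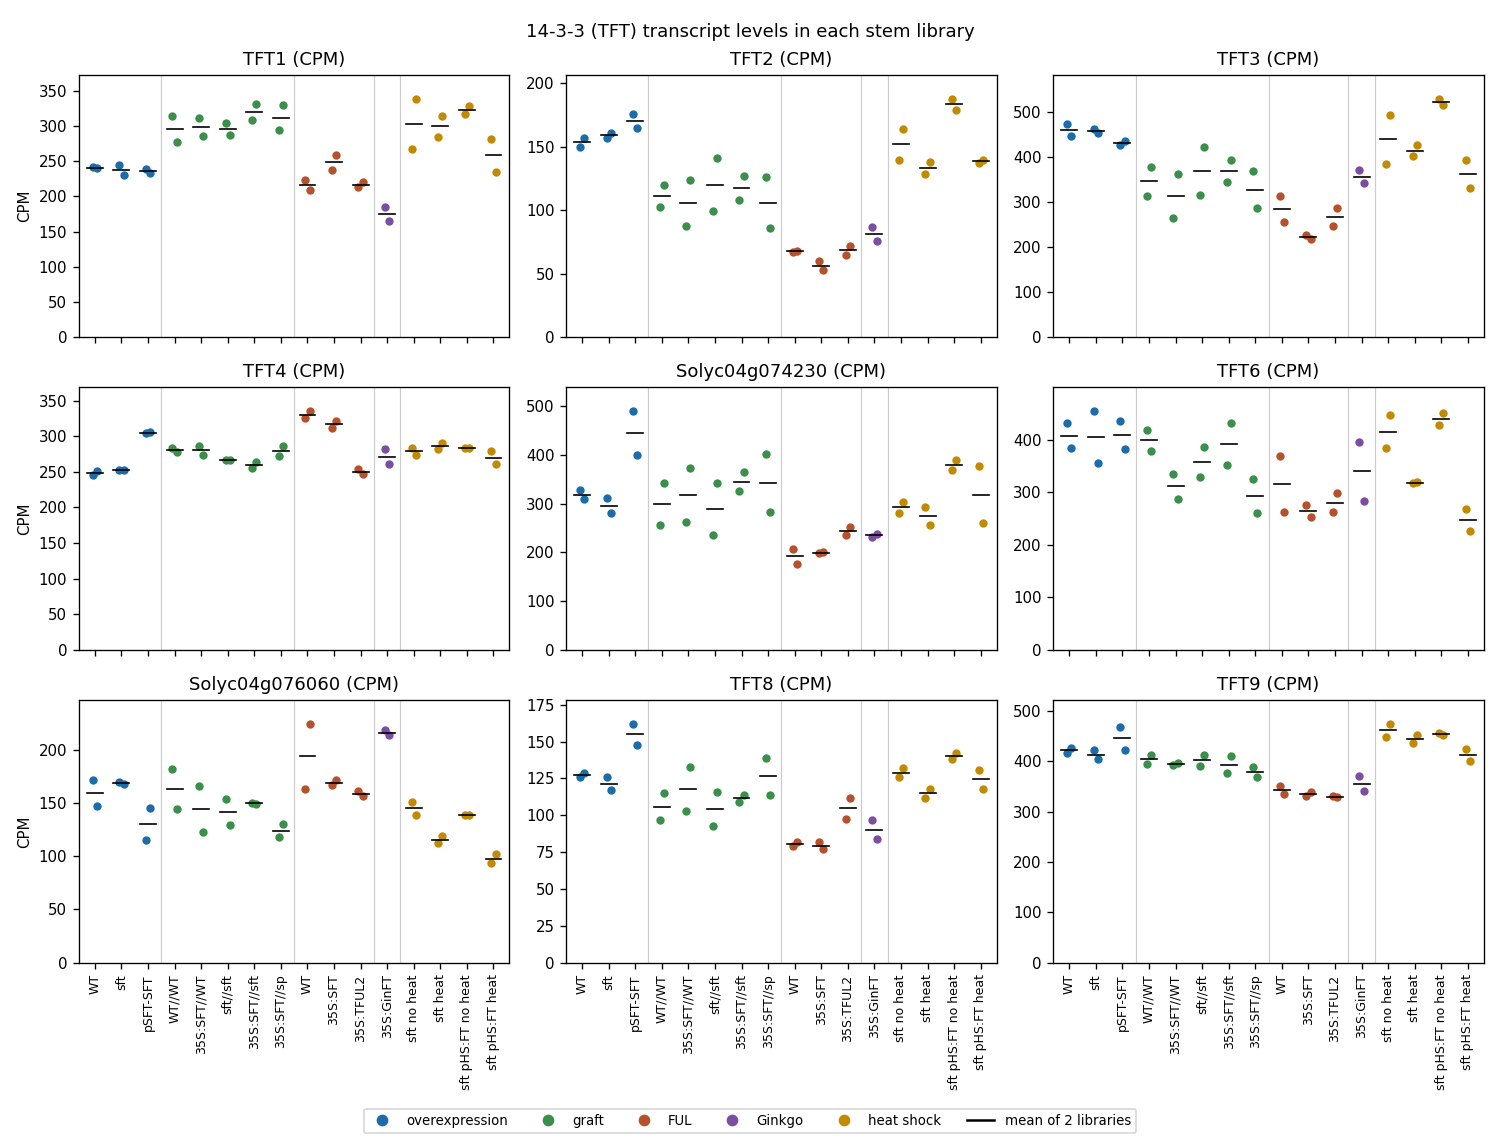
Levels of the 9 TFT genes in CPM in each of 32 stem libraries, 1 panel a gene, with its own vertical axis from 0. Points are libraries, horizontal lines are means of 2, and colours mark the experiment. TFT2 is lowest in the FUL groups, TFT4 differs by group within the overexpression and FUL experiments, and TFT6 is lowest in heated pHS:FT stems, at 247.6 CPM.

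Over the 18 comparisons, 11 of the 180 tests of a member passed. They fell on 8 members and 5 comparisons. This is 6.11% of the member tests, close to the 5.97% of all 380835 gene tests in the same comparisons that passed. SSP and TFT9 were never called (lowest adjusted p = 0.068 and 0.24 by edgeR's quasi-likelihood test).

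In stems labelled pSFT-SFT, TFT4 and Solyc04g074230 were higher than in WT. TFT4 stood at 304 and 306 CPM in them against 245 and 251 CPM (log2 0.30, SE 0.07, adjusted p = 0.028 by edgeR). Solyc04g074230 stood at 489 and 399 CPM against 327 and 309 CPM (log2 0.48, SE 0.12, adjusted p = 0.036). For both genes the groups did not overlap, as for 7 of 10 members in all. How many of all genes were without overlap was not counted, here or below. The 2 members called were both higher. Of all genes tested, 17.8% were called in this comparison and 9.04% were called higher. The other 8 members had log2 fold changes between -0.29 and 0.28.

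Against sft stems, the same libraries gave 3 members higher, where 19.4% of all genes were called and 10.3% called higher. TFT4 stood at 252.3 and 252.7 CPM in sft (log2 0.27, SE 0.07, adjusted p = 0.035). Solyc04g074230 stood at 311 and 280 CPM in sft (log2 0.59, SE 0.12, adjusted p = 0.019). TFT8 stood at 162 and 148 CPM in the libraries labelled pSFT-SFT and at 126 and 117 CPM in sft (log2 0.35, SE 0.08, adjusted p = 0.031). Groups did not overlap for any of these genes, as for 8 of 10 members in all. Both comparisons share the libraries labelled pSFT-SFT. Between sft and WT, edgeR and DESeq2 called 0 members, and edgeR called 0.0568% of all genes. At an unadjusted p under 0.05 by edgeR were 0 members and 1056 of 21141 genes tested. All 10 log2 fold changes there lay between -0.15 and 0.09.

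Whether the rises in pSFT-SFT were called depended on single libraries, in fits with fewer libraries. The rises stayed positive under 9 of 9 alternatives. Against WT the log2 fold change was 0.29 to 0.32 for TFT4 and 0.32 to 0.63 for Solyc04g074230. Against sft it was 0.27 to 0.28 for TFT4, 0.43 to 0.74 for Solyc04g074230 and 0.27 to 0.43 for TFT8. Against WT, the count of members called was 0 without replicate 1 of pSFT-SFT or without either WT library, and 1, Solyc04g074230, without replicate 2 of pSFT-SFT. Against sft it was 0 without replicate 1 of pSFT-SFT or without either sft library. Without replicate 2 of pSFT-SFT, Solyc04g074230 and TFT8 were still called, TFT4 was not, and Solyc04g076060 was called lower (log2 -0.54, adjusted p = 0.045 by edgeR). Markers of other cell types moved in the same libraries. The summed wall markers stood at 3080 to 3350 CPM against 2080 to 2310 in WT and 1810 to 2140 in sft, with CESA-a (Solyc02g072240) and CESA-b (Solyc09g072820) called higher in both comparisons and CESA-c (Solyc01g087210) called lower against WT. The green-tissue pair RBCS and LHCB summed to 593 to 682 CPM against 375 to 467 in WT, and 1 of the 2 was called higher. RBCS stood at 500 ± 40.7 against 304 ± 34.3 CPM in WT. LHCB stood at 138 ± 22.4 against 117 ± 30.8 CPM, with overlap. The part of these in the TFT differences was not tested.

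The FUL experiment set constant SFT and constant FUL2 against WT. In 35S:TFUL2 stems, TFT4 stood at 254 and 247 CPM against 325 and 335 CPM in WT and 312 and 322 CPM in 35S:SFT. Both 35S:TFUL2 libraries lay below the other 4. TFT4 fell by 0.38 on the log2 scale against WT (SE 0.08, adjusted p = 0.038 by edgeR). It was 1 of 10 members called, where 12.7% of all genes were called and 5.28% called lower. Its direction was opposite to that in the libraries labelled pSFT-SFT, in another experiment.

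TFT8 stood at 97.3 and 112 CPM in 35S:TFUL2 and at 78.9 and 81.9 CPM in WT, and did not pass (log2 0.40, SE 0.10, adjusted p = 0.053). The count of members called was 0 without either 35S:TFUL2 library. It was 3 without WT replicate 1 (TFT4, Solyc04g074230 and Solyc04g076060) and 1 without WT replicate 2, where SSP was called and TFT4 was not. In the same comparison CESA-a and RBCS were called higher and CESA-c and the chaperone gene HSP101 lower. LHCB was not called, at 122 ± 16.2 CPM in 35S:TFUL2 against 96.8 ± 41 CPM in WT, with overlap. The green pair summed to 325 to 335 CPM in 35S:TFUL2 against 128 to 156 CPM in WT, and its part in the TFT4 difference was not tested.

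For 35S:SFT against WT, edgeR and DESeq2 called 0 members, where edgeR called 1.74% of all genes. An unadjusted p under 0.05 by edgeR was found for 2 of 10 members and 4424 of 21312 genes tested. TFT3 was 226 and 217 CPM in 35S:SFT and 313 and 255 CPM in WT (log2 -0.38, SE 0.13, adjusted p = 0.17). TFT2 was 59.7 and 53.1 CPM against 67.5 and 68.2 CPM (log2 -0.29, SE 0.10, adjusted p = 0.19). The groups did not overlap for either gene, as for 4 of 10 members in all. SFT itself stood at 60.6 and 56.7 CPM in 35S:SFT and at 0 reads in both WT libraries. For 35S:SFT against 35S:TFUL2, edgeR called 0 members and DESeq2 called 3, SSP, TFT4 and TFT8. An unadjusted p under 0.05 by edgeR was found there for 5 of 10 members and 6351 of 21312 genes tested. Of all genes, edgeR called 8.53% in that comparison.

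**Figure D3:**
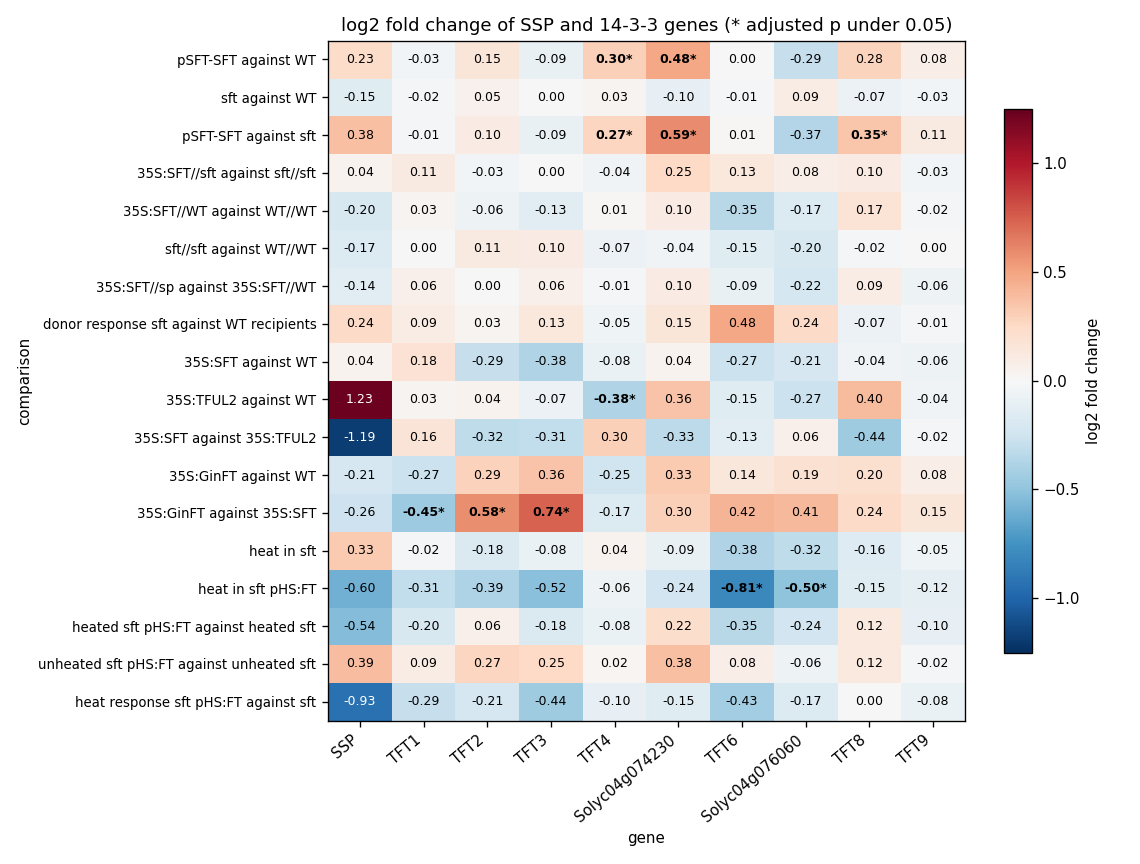
log2 fold change of each of the 10 genes (columns) in each of 18 comparisons (rows), from edgeR's quasi-likelihood test within an experiment. Red is higher and blue lower in the first-named group, and bold values with a star passed an adjusted p of 0.05. The 11 starred cells lie in 5 rows, and the SSP column holds the highest value, 1.23, and no star.

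Stems expressing the Ginkgo FT gene were set against the groups of the FUL experiment, since they have no WT of their own. The construct and the experiment cannot be told apart in these comparisons. Against WT, 5 of 10 members had an unadjusted p under 0.05 by edgeR, as did 5510 of the 21458 genes tested. After adjustment edgeR and DESeq2 called 0 members, where edgeR called 6.24% of all genes. Without WT replicate 2 the count was 1, the gene being Solyc04g076060. Against 35S:SFT, 2 members were higher and 1 lower, where 32% of all genes were called, 16.7% higher and 15.3% lower. TFT3 stood at 370 and 341 CPM in 35S:GinFT against 226 and 217 CPM in 35S:SFT (log2 0.74, SE 0.13, adjusted p = 0.0069 by edgeR). TFT2 stood at 86.5 and 75.7 CPM against 59.7 and 53.1 CPM (log2 0.58, SE 0.11, adjusted p = 0.0099). TFT1, known in tomato as a target of the bacterial effector XopN, stood at 185 and 165 CPM against 238 and 259 CPM (log2 -0.45, SE 0.10, adjusted p = 0.017).

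None of these 3 genes overlapped between the groups, where 9 of 10 members in all did not. TFT3 was called without either 35S:GinFT library and without 35S:SFT replicate 1, TFT2 was lost without 35S:GinFT replicate 1, and TFT1 was lost without 35S:GinFT replicate 2 or 35S:SFT replicate 1. Without 35S:SFT replicate 2 the count of members called was 0. In both 35S:GinFT libraries the green pair summed to 57.2 and 57.9 CPM, against 199 to 243 CPM in 35S:SFT. The wall markers summed to 1760 to 1950 CPM against 2570 to 2650 CPM, but did not move alike. CESA-a (210 against 675 CPM) and CESA-b (358 against 1040 CPM) were called lower, and CESA-c (1280 against 891 CPM) was called higher. The heat markers summed to 63.2 to 68.5 CPM against 115 to 123 CPM. Their part in the TFT differences was not tested.

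Heated pHS:FT plants held less TFT6 and Solyc04g076060 transcript than unheated ones. TFT6 stood at 269.1 and 226 CPM in heated and at 428 and 450 CPM in unheated pHS:FT plants, with no overlap. It fell by 0.81 on the log2 scale (SE 0.13, adjusted p = 0.018 by edgeR). Solyc04g076060 stood at 93.1 and 102 CPM in heated and at 139 and 139 CPM in unheated plants, again with no overlap, as for 9 of 10 members in all. It fell by 0.50 (SE 0.09, adjusted p = 0.027). These were 2 of 10 members, where 5.99% of all genes were called and 2.88% called lower. All 10 members had negative log2 fold changes in this comparison, from -0.81 to -0.06, with a median of -0.35 against 0.02 for all genes tested. TFT3 (log2 -0.52, SE 0.15, adjusted p = 0.08) and TFT2 (log2 -0.39, SE 0.10, adjusted p = 0.066) did not pass, and DESeq2 called them.

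In sft plants without the transgene, heat gave 0 members called by edgeR and DESeq2, where edgeR called 0.0973% of all genes. An unadjusted p under 0.05 by edgeR was found for 2 of 10 members and 1953 of 20546 genes tested. TFT6 stood at 317 and 320 CPM in heated and at 384 and 447 CPM in unheated sft (log2 -0.38, adjusted p = 0.40). Solyc04g076060 stood at 112 and 119 CPM against 151 and 139 CPM (log2 -0.32, adjusted p = 0.35 by edgeR). For both genes the groups did not overlap, as for 5 of 10 members in all. Without unheated sft replicate 1, the library with 12 reads of Arabidopsis FT, these log2 fold changes were -0.49 for TFT6 (adjusted p = 0.34) and -0.26 for Solyc04g076060 (adjusted p = 0.56).

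The difference between the heat responses of pHS:FT and sft plants called 0 members by edgeR and DESeq2, and 0.0146% of all genes by edgeR. At an unadjusted p under 0.05 by edgeR were 2 of 10 members and 1952 of 20546 genes tested. For TFT6 that difference was -0.43 on the log2 scale (adjusted p = 0.50). Whether the fall of TFT6 is particular to plants with the transgene was therefore not shown. Heated pHS:FT against heated sft plants gave 0 members called by edgeR and DESeq2, where edgeR called 2.39% of all genes. At an unadjusted p under 0.05 by edgeR were 2 of 10 members and 3594 of 20546 genes tested. Unheated pHS:FT against unheated sft plants gave 0 members by both tools, where edgeR called 0% of all genes and DESeq2 97 genes. At an unadjusted p under 0.05 by edgeR were 1 of 10 members and 1445 of 20546 genes tested.

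The count of members that heat changed in pHS:FT plants was 0 without either unheated pHS:FT library. Without either heated library TFT6 and Solyc04g076060 were still called, joined by Solyc04g074230 without heated replicate 1. The summed heat markers (HSP101, a small heat shock protein gene and HSFA2) stood at 1060 to 1690 CPM in heated and 173 to 220 CPM in unheated pHS:FT plants. In sft plants they stood at 857 to 858 CPM with heat and 151 to 255 CPM without. Of the 3 markers, 2 were called higher with heat in pHS:FT plants and 1 in sft plants. HSFA2 did not follow the sum. It stood at 3.22 ± 1.52 CPM in heated and 2.90 ± 0.793 in unheated pHS:FT plants, and at 2.67 ± 0.497 and 6.44 ± 3.48 CPM in sft. The green marker LHCB was called lower with heat in pHS:FT plants, at 62.6 ± 6.77 against 145 ± 31.0 CPM. The other green marker, RBCS, was not called, at 513 ± 35.9 against 547 ± 123 CPM. The part of these in the TFT falls was not tested.

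The grafts asked whether florigen from a 35S:SFT donor changes these genes in the stem. SFT stood at 1.36 CPM in 35S:SFT//WT, 3.01 in 35S:SFT//sft and 2.54 in 35S:SFT//sp, as group means. It stood at 1.49 CPM in WT//WT and at 58.7 CPM in 35S:SFT stems of the FUL experiment. Which partner was sampled was not tested. In the 4 comparisons between graft groups and in the difference between the donor responses of sft and WT recipients, edgeR and DESeq2 called 0 of 10 members, with 0 at an unadjusted p under 0.05. Such a p by edgeR was found for 546 to 1476 of the 21566 genes tested. Of all genes, edgeR called 0.0139% for 35S:SFT//WT against WT//WT, 0% for 35S:SFT//sft against sft//sft, 0.00927% for sft//sft against WT//WT, 0.00464% for 35S:SFT//sp against 35S:SFT//WT and 0% for the difference between donor responses. DESeq2 called between 15 and 117 of all genes in these. The edgeR fit also left uncalled the higher FUL1 and FUL2 levels given above for 35S:SFT donors. A count of 0 members therefore does not show that these genes did not respond. TFT fold changes lay between -0.35 and 0.25 on the log2 scale in the 4 comparisons of groups. The SE was 0.38 for SSP and 0.08 to 0.26 for the TFT genes.

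By the number that each graft library carries in the column names, these libraries fall into 2 runs, low and high, with 1 library of each group in each. TFT2, TFT3, Solyc04g074230, TFT8 and TFT9 were higher in the low-numbered library in 5 of 5 groups, with a median ratio of 1.42 for TFT2 and for Solyc04g074230, 1.29 for TFT3, 1.22 for TFT8 and 1.05 for TFT9. Solyc04g076060 was lower there in 5 of 5 groups (median ratio 0.837), as was SSP2 (0.696). SSP was lower there in 4 of 5 groups (0.609), the exception being 35S:SFT//WT. What the numbers stand for is not stated in the labels.

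Within the runs, SSP differed between 35S:SFT//WT and WT//WT by 0.37 on the log2 scale among low numbers and by -0.69 among high ones. TFT6 differed by -0.39 and -0.33 in the same comparison. Between 35S:SFT//sft and sft//sft, SSP differed by 0.09 and 0.03 and TFT6 by 0.16 and 0.10. With the run as a term in the fit, edgeR called 0 members in each graft comparison.

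The reads of the 9 TFT genes can also be given as shares of their sum. Shares here are of reads, not corrected for gene length, and are compared between groups for 1 gene at a time. TFT9 took between 15.9% and 18.6% of the reads of the 9 genes in the group means. TFT4 took 9.79% ± 0.403 in WT of the overexpression experiment and 16.8% ± 0.355 in 35S:SFT. TFT2 took 2.99% ± 0.253 in 35S:SFT and 6.41% ± 0.256 in unheated pHS:FT plants. Solyc04g076060 took 4.41% ± 0.725 in heated pHS:FT plants and 10.2% ± 0.665 in 35S:GinFT. For every 10000 TFT reads there were 34.3 ± 5.9 SSP reads in 35S:TFUL2 stems and between 10.7 and 20.5 in the other 15 group means.

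**Figure D4:**
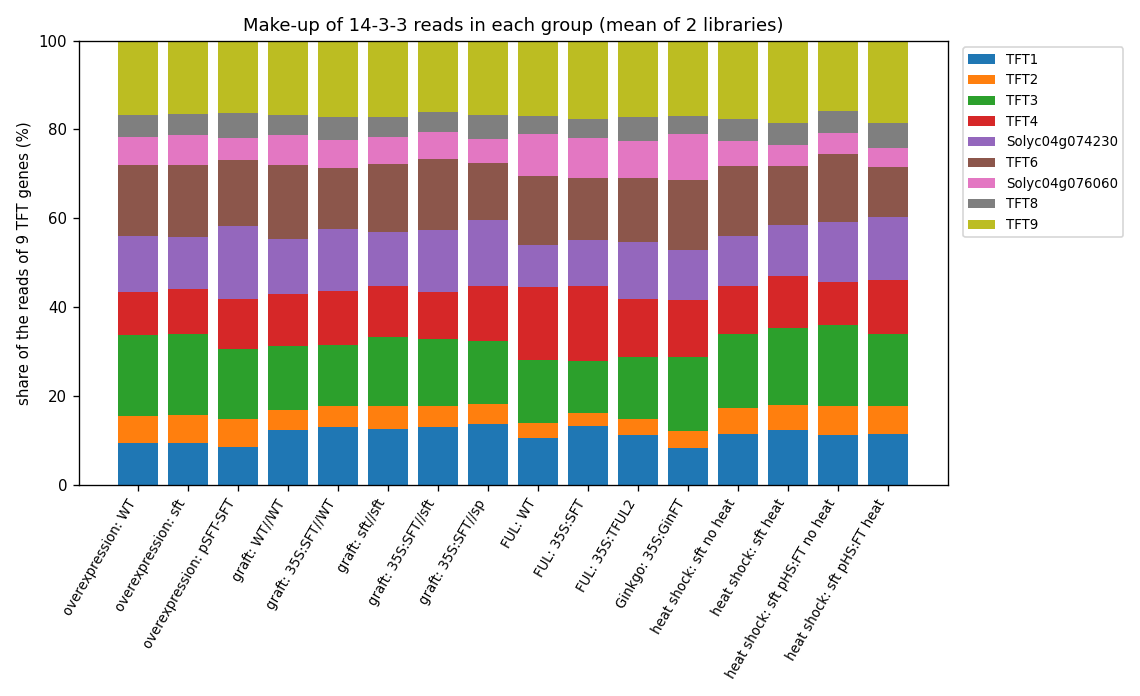
Share of the reads of the 9 TFT genes, in percent, taken by each gene in each of 16 groups (mean of 2 libraries, not corrected for gene length). TFT9 keeps a share of 15.9% to 18.6%, TFT4 is largest in 35S:SFT at 16.8%, and Solyc04g076060 is largest in 35S:GinFT at 10.2%.

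Some TFT genes varied alongside each other. Over the 16 group means of log2 CPM with the mean of each experiment removed (FUL and Ginkgo taken as 1), Pearson r was 0.894 for TFT2 with TFT3, 0.876 for Solyc04g074230 with TFT8 and 0.833 for TFT6 with Solyc04g076060. SSP had its highest value with TFT8, at 0.499. The first pair differed alike between 35S:GinFT and 35S:SFT, the second was higher in stems labelled pSFT-SFT than in sft, and the third was lower with heat in pHS:FT plants. These points share libraries, depth and possible shared reads of related genes, so the values describe these 16 groups only.

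By the same measure, over 17666 genes with a mean of 2 CPM or more, the genes most like SSP were Solyc04g007500 (r = 0.917), Solyc02g076660 (r = 0.915) and Solyc10g083340 (r = 0.906). For TFT6, the TFT gene with the widest spread of group means once experiment means were removed, they were Solyc06g053820 (r = 0.945), Solyc02g094190 (r = 0.934) and Solyc10g005520 (r = 0.918).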

How the data were processed

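The authors deposited whole-number read counts per gene in 2 tables, with 34728 rows for 4 experiments and 34825 rows for the heat-shock experiment, and 0 sample columns were left unused. Per the labels' protocols, libraries came from the TruSeq RNA v2 kit, which does not mark strand, as single 50 bp reads. The submitters' processing notes name HTSeq 0.6.1, TopHat2 2.1.0 with Bowtie2 2.2.6, Trim Galore, and FastQC 0.11.5. Neither settings nor a genome build is given there, and no coordinates or sequences are printed.

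Counts were tested in R 4.3.3 with edgeR 4.0.16 (TMM, filterByExpr with minimum count 10 and minimum total 15, glmQLFit and glmQLFTest, two-sided), with all groups of an experiment in 1 fit and Benjamini-Hochberg adjustment over all genes. The procedure was tested on simulated data. Alternatives were DESeq2 1.42.0, RLE size factors, no filter, only the groups compared, a replicate block and leaving out each library. The 10 genes are given in every comparison, with values per library for those called and for others with large fold changes. The genes and lists were chosen with earlier results of these data known. No pair of libraries matched within sampling noise (chi-square per degree of freedom 7.26 to 47.6).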

Additional observations from a re-analysis of the deposited data

How the results depend on the processing

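The number of members called moved with the processing in 7 comparisons, and no called fold change of a member, SSP2 or SFT reversed under the alternatives run. When the fit held no other groups than those compared, the count was 0 for pSFT-SFT against WT, 35S:TFUL2 against WT and heat in pHS:FT plants, 4 for 35S:SFT against 35S:TFUL2 and 5 for 35S:GinFT against 35S:SFT. DESeq2 gave 4 for 35S:TFUL2 against WT, 3 for 35S:SFT against 35S:TFUL2 and 4 for heat in pHS:FT plants. Leaving out 1 library gave 0 to 1 members for pSFT-SFT against WT, 0 to 3 for pSFT-SFT against sft, 0 to 3 for 35S:TFUL2 against WT, 0 to 1 for 35S:GinFT against WT, 0 to 2 for 35S:GinFT against 35S:SFT and 0 to 3 for heat in pHS:FT plants. The cause was not tested, beyond that such fits hold fewer libraries. For fold changes of single genes, 413 values under an alternative stayed on the same side of the threshold, 46 fell below it and 18 passed it. With scaling by library totals in place of TMM, the fold between the highest and lowest group moved for 7 of 10 members.

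Whether the replicate numbers pair the samples is not stated in the labels, and the main fits held no pairing. Correlations of deviations between same-numbered libraries ran from 0.0481 to 0.333 (overexpression), -0.634 to 0.519 (graft), 0.0152 to 0.207 (FUL) and -0.238 to 0.316 (heat shock). Among the low-numbered graft libraries they ran from -0.0443 to 0.6. With the replicate number as a block, 35S:TFUL2 against WT gave 0 members and heat in pHS:FT plants 1, TFT6, and the other comparisons kept their count. At 38 to 223 reads per library, the SE of an SSP fold change was 0.24 to 0.41 in comparisons of 2 groups, against 0.07 to 0.26 for the TFT genes.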

Other observations

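The deposited tables hold separate rows for the introns of SSP and SSP2, 4 rows in all. Over all libraries, the first intron of SSP held 75 reads beside 3445 reads of the gene row, or 2.18 per 100, with 1.12 to 3.17 per 100 in the 16 groups. The first intron of SSP2 held 1607 reads beside 7671 of the gene row, or 20.9 per 100, with 14.1 to 27.3 per 100 in the groups. No library held more than 7 reads in the first intron of SSP or more than 11 in the second intron of SSP2. In stems labelled pSFT-SFT the first intron of SSP2 fell by 2.60 on the log2 scale against WT (SE 0.36, adjusted p = 0.0073 by edgeR's quasi-likelihood test), beside a log2 fold change of -2.87 for the gene row of SSP2. Intron lengths were not used, so these ratios are not compared between the genes.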
